A study of Mus musculus with 19 samples.

Results

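HOX genes encode homeodomain transcription factors that lie in 4 chromosomal clusters, and their RNA was followed here along each cluster in normal mouse skin and in skin tumours driven by BRAF V600E. The members were all protein-coding genes of the count table whose annotated symbol was Hoxa, Hoxb, Hoxc or Hoxd followed by a paralogue number, which gave 37 of the 34807 genes in the table. The annotation holds 39 such genes, and Hoxb13 and Hoxd12 had no entry in the table. The 37 comprised 11 Hoxa, 9 Hoxb, 9 Hoxc and 8 Hoxd genes. Hoxa13 and Hoxd13 had fewer than 5 counts in each of the 19 libraries and were left out of the tests, so 35 members were tested.

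Poly(A) RNA was sequenced from 15 tumours and from 4 samples of wild-type skin, called normal skin below. The tumours, labelled as squamous cell carcinoma, formed after a tamoxifen-inducible Cre recombinase (CreERT2) switched on the BRAF V600E allele in mice aged 7 to 20 weeks, per the labels. The recombinase was driven by the promoter of Ivl (involucrin, a gene of differentiating keratinocytes) in 6 tumours, of K5 (keratin 5, basal keratinocytes) in 5 and of K14 (keratin 14, basal keratinocytes) in 4. The study joined the K5 and K14 tumours as K5/K14 tumours, and that pool of 9 is used below beside its separate arms. All 19 samples were labelled female. By the study's methods, tamoxifen (Ivl model) or 4-hydroxytamoxifen (K5 and K14 models) was applied to shaved back skin. By the study's account the K5 and K14 models carried their tumour there, whereas the Ivl model had lesions at several body sites, among them paws, ears and lips as well as the back. The labels give neither the site of each sequenced tumour nor that of the normal skin, so site and group cannot be told apart in these libraries. The study also reports that tumours appeared later in the Ivl model than in the K5 and K14 models. Form of the drug and time to tumour therefore cannot be told apart from group between Ivl and K5/K14 tumours. The promoter selects the cells in which the allele recombined, and all other cells of the piece of tissue were sequenced with them. Nothing in the labels states that the libraries of a group came from separate animals, and the p-values measure only the spread between these samples.

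Within a cluster, paralogue number follows position on the chromosome: low-numbered (anterior) genes are activated early and towards the head during development, and high-numbered (posterior) genes later and towards the tail. Adult skin fibroblasts keep a HOX pattern that reflects the body site they came from, which is why these genes are used as positional markers. HOX proteins bind DNA together with TALE homeodomain partners (PBX, MEIS and PREP proteins), while Polycomb complexes keep silent HOX chromatin repressed and Trithorax/MLL complexes keep active HOX chromatin open. Members 1 to 3 are called anterior here, 4 to 8 central and 9 to 13 posterior.

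In the GRCm38 build the annotated genes of the Hoxa cluster spanned positions 52155590 to 52260880 of chromosome 6, those of Hoxb positions 96194316 to 96368256 of chromosome 11, those of Hoxc positions 102921103 to 103036852 of chromosome 15 and those of Hoxd positions 74668310 to 74765142 of chromosome 2. The RefSeq promoter sequences (GRCm38.p6) of 4 central members are shown because their levels parted in the K5 tumours described below, where Hoxb4 and Hoxd8 were detected in K5 2 to 5 and Hoxa5 in K5 3 to 5 while Hoxb8 was at or near 0 in all of these. Each is the stretch of 250 bases that ends at the annotated start of the gene, read 5′ to 3′ on the gene's own strand. Capitals mark matches on either strand to 3 motifs. The PBX-HOX composite motif was searched as TGATNNAT. The motif of caudal type factors, which activate central HOX genes in the embryo, was searched as TTTATG. The TATA box, where the basal transcription machinery binds, was searched as TATAAA. Hoxb8 lies on the plus strand at chr11:96281655-96281904, Hoxb4 on the plus strand at chr11:96318017-96318266, Hoxd8 on the plus strand at chr2:74704365-74704614 and Hoxa5 on the minus strand at chr6:52204588-52204837.
Hoxb8: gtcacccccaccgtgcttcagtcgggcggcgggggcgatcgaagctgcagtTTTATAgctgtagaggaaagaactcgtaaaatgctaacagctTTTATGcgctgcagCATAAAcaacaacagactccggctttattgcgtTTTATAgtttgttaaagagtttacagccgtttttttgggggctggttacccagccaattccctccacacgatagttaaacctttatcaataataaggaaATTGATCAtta
Hoxb4: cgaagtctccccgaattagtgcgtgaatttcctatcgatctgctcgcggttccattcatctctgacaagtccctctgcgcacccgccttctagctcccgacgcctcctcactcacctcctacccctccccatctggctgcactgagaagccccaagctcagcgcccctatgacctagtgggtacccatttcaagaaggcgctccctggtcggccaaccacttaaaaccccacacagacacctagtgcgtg
Hoxd8: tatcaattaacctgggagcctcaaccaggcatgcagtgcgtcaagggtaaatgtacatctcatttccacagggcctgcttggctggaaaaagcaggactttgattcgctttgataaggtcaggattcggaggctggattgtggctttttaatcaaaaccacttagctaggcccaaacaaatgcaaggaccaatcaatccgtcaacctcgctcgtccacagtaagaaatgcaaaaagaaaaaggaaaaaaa
Hoxa5: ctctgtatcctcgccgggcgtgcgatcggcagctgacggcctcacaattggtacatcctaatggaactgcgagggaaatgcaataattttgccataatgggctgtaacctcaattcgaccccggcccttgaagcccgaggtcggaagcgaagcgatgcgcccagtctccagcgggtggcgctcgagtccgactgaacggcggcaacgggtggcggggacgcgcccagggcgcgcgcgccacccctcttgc

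The Hoxb8 window held 1 match to the PBX-HOX composite motif, 2 to the caudal motif and 2 to the TATA box, and the windows of Hoxb4, Hoxd8 and Hoxa5 held no match. Hoxa6, Hoxa7, Hoxa9 and Hoxa10 were also low in K5 2 to 5. The windows of Hoxa6 and Hoxa9 held no match, and that of Hoxa7 held 2 to the caudal motif. A Hoxa10 window held 1 match to the TATA box and another held none. A relation of the motifs to the levels was not tested. RefSeq had a promoter entry for 22 of the 39 annotated HOX genes, with 24 entries in all. The composite motif occurred in 4 of these 24 windows (16.7%) against 7.68% of all 32851 promoters. The caudal motif occurred in 5 (20.8%) against 10.8%, and the TATA box in 4 (16.7%) against 12.4%. The HOX windows had a median GC content of 58.6% against 52.4% over all promoters, and a median ratio of observed to expected CpG of 0.721 against 0.374. A match describes the letters only and shows no binding.

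Library totals ranged from 45715309 to 72609771 counts after the batch adjustment that the study applied to its counts. The 4 libraries Ivl 1, Ivl 2, Ivl 3 and K5 1 stood apart: over 13954 expressed genes, the mean CPM of this set and that of the 15 remaining libraries differed by less than 0.1 log2 for 96.6% of genes, against 64.1% for the next of all 3876 possible sets of 4 and 29.5% for the median set. This set held tumours only, and the 15 remaining libraries held all normal skin and all K14 samples. The part of the batch adjustment in the levels of this set was not tested. Contrasts with normal skin over 19 libraries, and the levels of these 4, carry that limit. The labels name no batch. The study's supplement describes a smaller and a larger batch sequenced at different times, whose sizes equal those of this set and of the remaining libraries, but it does not name the libraries in each. Of the 23 members with a mean over 2 CPM in either set, 16 had the means of both sets within 0.5 log2 of each other. This window is wider than the 0.1 log2 above, and no share of all genes was taken at it, so the 2 shares cannot be compared. In what follows, CPM are counts scaled to a common library size by TMM. Ivl 1 was the highest Ivl tumour for 25 of the 36 members with a count in that group, and K5 1 the highest K5 tumour for 28 of 35. Counts of called members are therefore given over all 19 libraries and over the 15 libraries without these 4, called the 15 libraries below. Summed CPM over 6 keratinocyte markers were 5098 to 10635 in normal skin, and the tumours reached 31223 to 98071. In the 6 Ivl, 5 K5 and 4 K14 tumours, 7 fibroblast markers summed to 1517 to 10760.2, 5495 to 15015 and 3822 to 12629 CPM, against 833 to 18240.5 in normal skin. In bulk tissue, fewer cells of a type and less RNA per cell cannot be told apart.

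In normal skin the central members made up 62.9% to 81.3% of the HOX RNA summed per kb of exon. Detection was set at 1 CPM, which anterior Hoxb3 and posterior Hoxb9, Hoxc9, Hoxc13 and Hoxd9 also reached in all 4 normal skin libraries. Of the 37 members, 19 were detected in all 4 normal skin libraries and 13 in none of them. The K14 tumours came close to this extent, with 16 members detected in all 4 libraries and 14 in none. In contrast, 5 members were detected in all 5 K5 tumours and 2 in all 6 Ivl tumours. Over all 19 libraries 10 members were detected in no K5 tumour and 10 in no Ivl tumour, fewer than in normal skin. Within the 15 libraries these numbers were 22 and 26. The groups differ in size, and counts of members detected in all or in no libraries shift with the number of libraries. The number of members detected was 21, 23, 20 and 20 in the normal skin libraries and 22, 22, 17 and 18 in the K14 tumours. It was 27 in K5 1 but 6, 11, 13 and 13 in K5 2 to 5, and 24 in Ivl 1 but 7, 5, 10, 10 and 3 in Ivl 2 to 6. The K5 and Ivl groups each held a single library, in both cases one of the 4 that stood apart, with more members detected than any normal skin library.

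**Figure D1:**
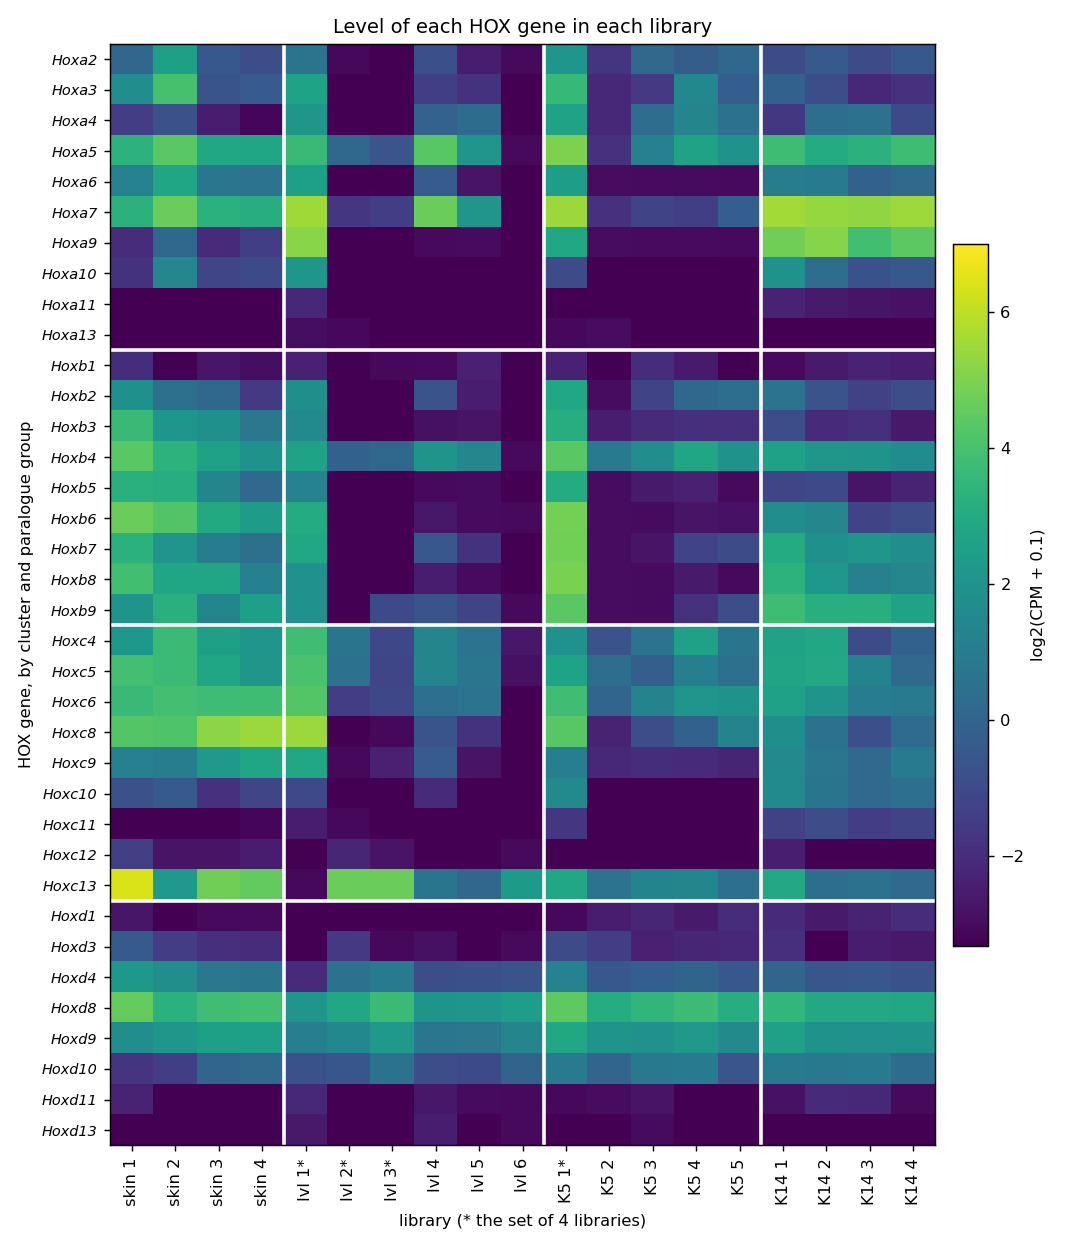
Level of 36 of the 37 HOX members (vertical, ordered by cluster and paralogue number) in each of the 19 libraries (horizontal, by group, an asterisk marking the 4 libraries that stood apart), as log2 of CPM plus 0.1 in a colour scale from dark (low) to bright (high). Normal skin is bright at most central members and at Hoxc13. The K14 tumours are bright at Hoxa5, Hoxa7, Hoxa9 and Hoxb9 and darker than normal skin at Hoxb5, Hoxb6, Hoxc8 and Hoxd4. Ivl 2 to 6 and K5 2 to 5 are dark over most of Hoxb and posterior Hoxa, and Hoxd8 and Hoxd9 are above 1 CPM in all 19 libraries.

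Hoxd8 and Hoxd9 were the only members detected in all 19 libraries. Hoxa11, Hoxa13, Hoxb1, Hoxc11, Hoxc12, Hoxd1, Hoxd3, Hoxd11 and Hoxd13 were below 1 CPM in each library. Along the Hoxa cluster the highest-numbered gene detected was paralogue 7 or 10 in normal skin, 9 or 10 in the K14 tumours, 7 in Ivl 4 and Ivl 5, and 5 in K5 3, K5 4 and K5 5. It was 10 in Ivl 1, 9 in K5 1 and 5 in Ivl 2, while Hoxa2 to Hoxa13 were all below 1 CPM in K5 2, Ivl 3 and Ivl 6. Along Hoxb the highest was paralogue 9 in all 4 normal skin libraries and all 4 K14 tumours, and 4 in Ivl 4, Ivl 5 and K5 2 to 5. It was 9 in Ivl 1 and K5 1, and no Hoxb member was detected in Ivl 2, Ivl 3 and Ivl 6. At the end of Hoxc, Hoxc13 was detected in 17 of the 19 libraries.

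Summed over the 37 members and scaled to exon length (CPM per kb), HOX RNA amounted to 121, 92.9, 67.7 and 63.4 in the 4 normal skin libraries. It amounted to 75, 55.2, 44.1 and 47.7 in the 4 K14 tumours. In the K5 tumours 1 to 5 the sums were 154, 9.47, 15.8, 26.6 and 19.5, and in the Ivl tumours 1 to 6 they were 99, 17.8, 20.1, 33.5, 13.7 and 5.88. The sums of K5 2 to 5 and of Ivl 2 to 6 lay below each K14 tumour and each normal skin library, while K5 1 had the highest sum of all 19. The share of each cluster differed between libraries. The Hoxa cluster supplied 44.8%, 52.9%, 58.5% and 66.3% of the summed HOX RNA in the 4 K14 tumours, against 10.6% to 37.3% in normal skin. The Hoxd cluster supplied 60.7% in K5 2 and 64.2% in Ivl 6, against 7.41% to 14.6% in normal skin. By position, the posterior members made up 68.4%, 66.9% and 62.4% of the sum in Ivl 2, Ivl 3 and Ivl 6, and 10.6% to 32.7% in normal skin. Most of this was Hoxc13 alone, at 10.4, 10.3 and 1.97 CPM per kb of posterior sums of 12.2, 13.5 and 3.67 in these tumours. The posterior sums of normal skin were 9.88 to 39.5 CPM per kb, so those of the 3 tumours lay within or below them.

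**Figure D2:**
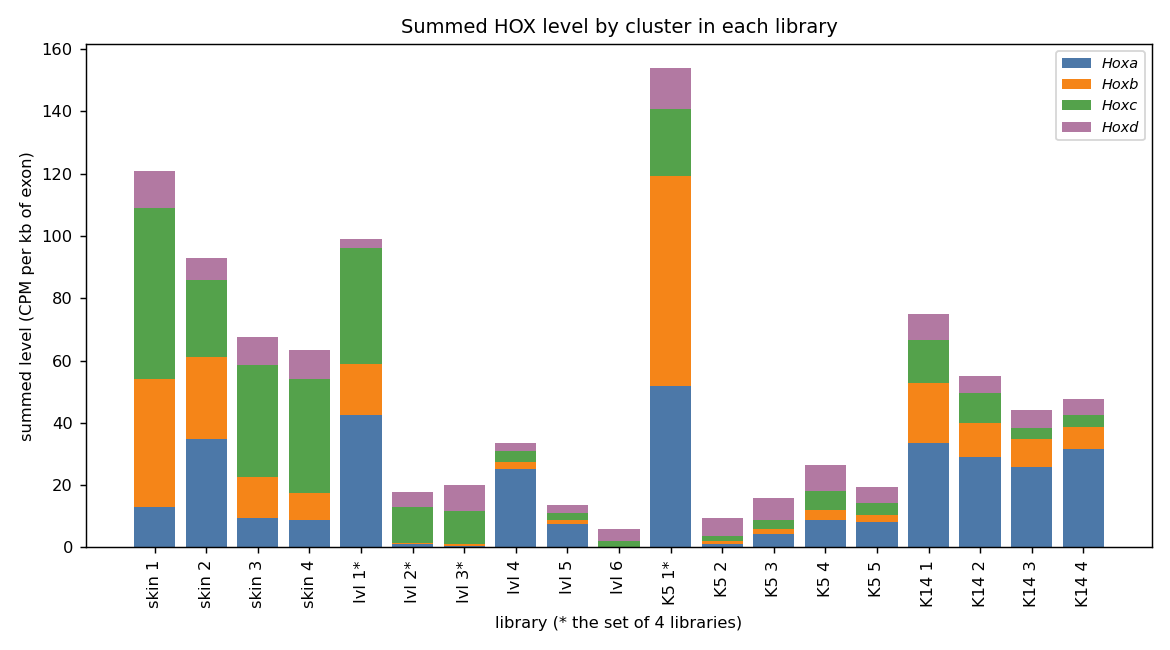
Summed CPM per kb of exon of the HOX members in each of the 19 libraries, as a stacked bar with 1 colour per cluster (an asterisk marks the 4 libraries that stood apart). The Hoxb segment is 7.12 to 19.1 CPM per kb in the K14 tumours and 0.803 to 3.29 in K5 2 to 5, while it reaches 67.2 in K5 1.

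The question behind the comparisons is how tumours that began in different epidermal cells differ from skin and from each other. Each gene was tested with edgeR's quasi-likelihood test, and a gene was called at an adjusted p under 0.05 over all genes tested. Between Ivl tumours and normal skin, over all 19 libraries, 1 member rose and 5 fell among the 35 tested, where 20.4% of all genes rose and 15.5% fell. The members had a median log2 fold change of -1.54 against -0.46 over all genes. In the 15 libraries 1 member rose and 17 fell (all genes, 22.2% and 32.7%), with a median of -3.32 against -0.66. The count of 6 called members over 19 libraries became 21 without Ivl 1, and the count of 18 within the 15 became 11 without Ivl 5. The fall of HOX genes in Ivl tumours thus depended on whether Ivl 1 and the other libraries that stood apart were kept.

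Between K5/K14 tumours and normal skin, 5 members rose and 3 fell over all 19 libraries (all genes, 23.2% and 38.9%), with a median log2 fold change of -0.44 against -0.60. In the 15 libraries 6 rose and 12 fell (all genes, 23.9% and 42.3%), with a median of -1.19 against -0.64. The count of 8 over 19 libraries became 5 without skin 1 or without skin 2, and 13 without K5 1. In K14 tumours alone 5 members rose and 2 fell over 19 libraries (all genes, 20.6% and 25.9%, median -0.91 against -0.56), and 7 rose and 10 fell within the 15 (21.9% and 32.6%, median -0.91 against -0.56). The count of 7 over 19 libraries became 4 without K14 2, K14 3 or K14 4 and 11 without Ivl 1. In K5 tumours alone 1 member rose and 2 fell over 19 libraries (all genes, 22.2% and 33.5%, median -0.47 against -0.64), and 2 rose and 18 fell within the 15 (22.8% and 38.4%, median -2.30 against -0.74). The count of 3 over 19 libraries became 17 without K5 1, 8 without Ivl 1 and 5 without skin 4. These comparisons share the same 4 normal skin libraries.

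Between tumour types the tests called few members. For Ivl against K5/K14 tumours 1 member was lower and 0 were higher over all 19 libraries (all genes, 0.593% and 1.77%), with a median log2 fold change of -0.81 against 0.11. Without Ivl 1 that count became 3, and without Ivl 3 it became 2. Among the 15 libraries edgeR called 0 members (all genes, 0.213% higher and 0.197% lower, median -1.76 against 0), where 15 had an unadjusted p under 0.05 and all 15 were lower in the Ivl tumours. Of all genes, 11.3% had an unadjusted p under 0.05 there, in either direction. DESeq2 called 5 members there (833 of all genes), and edgeR called 2 members without skin 1 and 1 without skin 2. For K5 against K14 tumours edgeR called 0 members over all 19 libraries, where it called 0% of all genes higher and 0% lower. Of the members, 2 had an unadjusted p under 0.05 there (6.07% of all genes), DESeq2 called 0 (174 of all genes), and the median was 0.05 against 0. Among the 15 libraries 4 members were lower in K5 tumours and 0 higher (all genes, 0.0313% and 0.0219%, median -0.78 against 0). That count was between 1 and 7 when a library was left out: it was 1 without K5 2 or K5 3, 2 without skin 1, skin 3, skin 4, Ivl 5, K5 4, K14 1 or K14 2, and 7 without Ivl 6. At an unadjusted p under 0.05, 13 members were lower in K5 tumours, and DESeq2 called 10. Of all genes, 10.1% had an unadjusted p under 0.05 there, in either direction, and DESeq2 called 518.

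**Figure D3:**
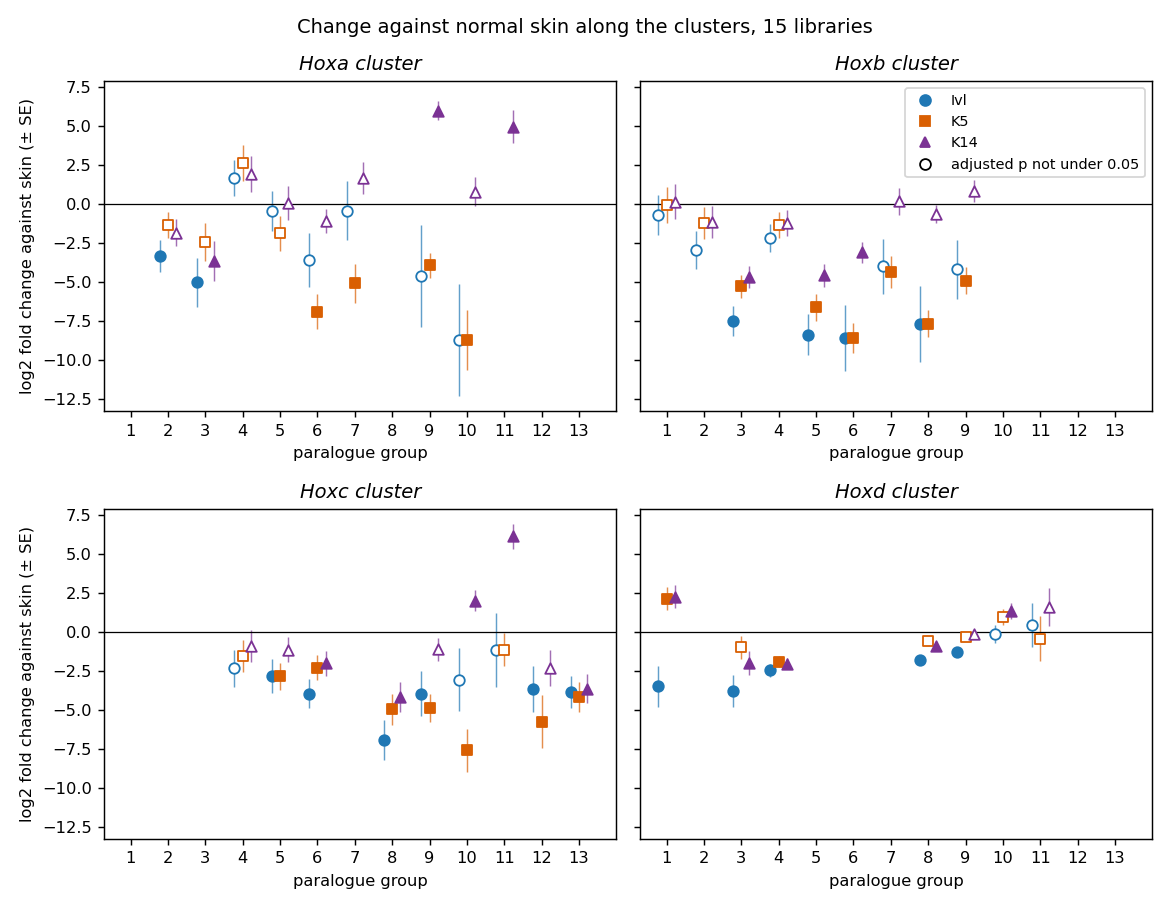
Fitted log2 fold change (vertical, with its standard error) of Ivl, K5 and K14 tumours against normal skin for tested members by cluster and paralogue number (horizontal), within the 15 libraries. Filled symbols passed the edgeR test at an adjusted p under 0.05, members of a comparison with no standard error are left out, and values for a group at or near 0 counts depend on the prior count of the fit and are no measure of size. The K14 symbols of Hoxa9, Hoxa11, Hoxc10 and Hoxc11 lie above 0.

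In the Hoxa cluster the posterior gene Hoxa9 was high in K14 tumours, and Hoxa9 and Hoxa10 were at or near 0 in K5 2 to 5 and Ivl 2 to 6. Of the 10 tested members of the cluster, 1 rose and 0 fell in Ivl tumours over all 19 libraries, and 2 rose and 0 fell in K5/K14 tumours. Of all genes, 20.4% rose and 15.5% fell in Ivl tumours there, and 23.2% and 38.9% in K5/K14 tumours. Restricted to the 15 libraries, 1 rose and 2 fell in Ivl tumours, 1 rose and 4 fell in K5 tumours, and 3 rose and 1 fell in K14 tumours. Of all genes, 22.2% rose and 32.7% fell in Ivl tumours there, 22.8% and 38.4% in K5, and 21.9% and 32.6% in K14 tumours.

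Hoxa9, a posterior gene best known for its role in blood progenitors and leukaemia, was at 0.145, 0.978, 0.141 and 0.273 CPM in normal skin. It was at 27, 35, 14.6 and 21.3 CPM in the K14 tumours, at 35.5 in Ivl 1 and at 6.96 in K5 1. In the other 9 tumours it had at most 1 count per library, and it was listed at 0 in Ivl 2, Ivl 3 and Ivl 6. The K14 tumours lay above all normal skin libraries and above all K5 tumours. Against normal skin it rose in K14 tumours within the 15 libraries by 5.99 ± 0.61 log2 (± SE, here and below, edgeR adjusted p = 2.67e-06), and over 19 libraries the same contrast had an adjusted p of 0.0737. For the pooled K5/K14 tumours within the 15 libraries its edgeR adjusted p was 0.044, and that call was lost in 11 of 15 fits that left out a library, up to 0.098. K5 2 to 5 held 4 Hoxa9 counts in all, and the ratio of the K14 tumours to K5 2 to 5 was 1062 with an exact 95% counting interval of 414 to 3899 (edgeR adjusted p = 1.73e-04), a call that held in all 15 fits that left out a library. Such intervals treat the batch-adjusted values as read counts and cover counting error only. Normal skin exceeded these K5 tumours as well, at a ratio of 16.3 (6.23 to 60.7, edgeR adjusted p = 7.05e-04). Exactly 1 count was listed for 10, 6, 2 and 4 members in K5 2 to 5 and for 3, 5 and 9 in Ivl 4 to 6. It was listed for 0, 0, 0 and 2 members in the normal skin libraries and for 1, 0, 0 and 1 in the K14 tumours. The part of the batch adjustment in these low values, and so in the ratios, was not tested.

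Hoxa7, a central gene that is expressed in epidermis and has been linked to keratinocyte differentiation, had the highest median level per length of all members in the K14 tumours. It stood at 16.4, 14.3, 13.5 and 15.7 CPM per kb there and at 3.44, 8.71, 3.33 and 2.98 in normal skin. In CPM it reached 47.1, 41.2, 38.8 and 45.2 in the K14 tumours, 44.1, 0.177, 0.339, 0.28 and 0.756 in the K5 tumours 1 to 5 and 45.8, 0.213, 0.276, 25.5, 4.1 and 0 in the Ivl tumours 1 to 6. K14 tumours exceeded all normal skin libraries and K5 2 to 5 lay below them, and skin 2 was the highest of the normal skin. Against normal skin Hoxa7 fell in K5 tumours within the 15 libraries by 5.07 log2 (SE 1.24, edgeR adjusted p = 0.00392). In K14 tumours its difference of 1.70 ± 1.02 had an adjusted p of 0.171, although the groups did not overlap. Hoxa7 shares 20.4% of its exon bases with an antisense transcript. Hoxa5, a gene of neck and lung patterning, was detected in all K14 tumours and in 4 of the 5 K5 tumours. It was at 10.1, 20.4, 6.96 and 6.77 CPM in normal skin, 13.9, 8.02, 9.8 and 13.9 in the K14 tumours and 31.3, 0.177, 2.17, 6.02 and 3.72 in the K5 tumours 1 to 5. In Ivl 1 to 6 it was at 12.8, 1.03, 0.551, 19.9, 4.19 and 0.0193 CPM. K5 2 to 5 lay below all normal skin and K14 libraries, and the K14 tumours overlapped with normal skin. Hoxa5 was called by edgeR in no comparison, and for K14 tumours against normal skin its log2 difference was 0.05 ± 1.28.

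**Figure D4:**
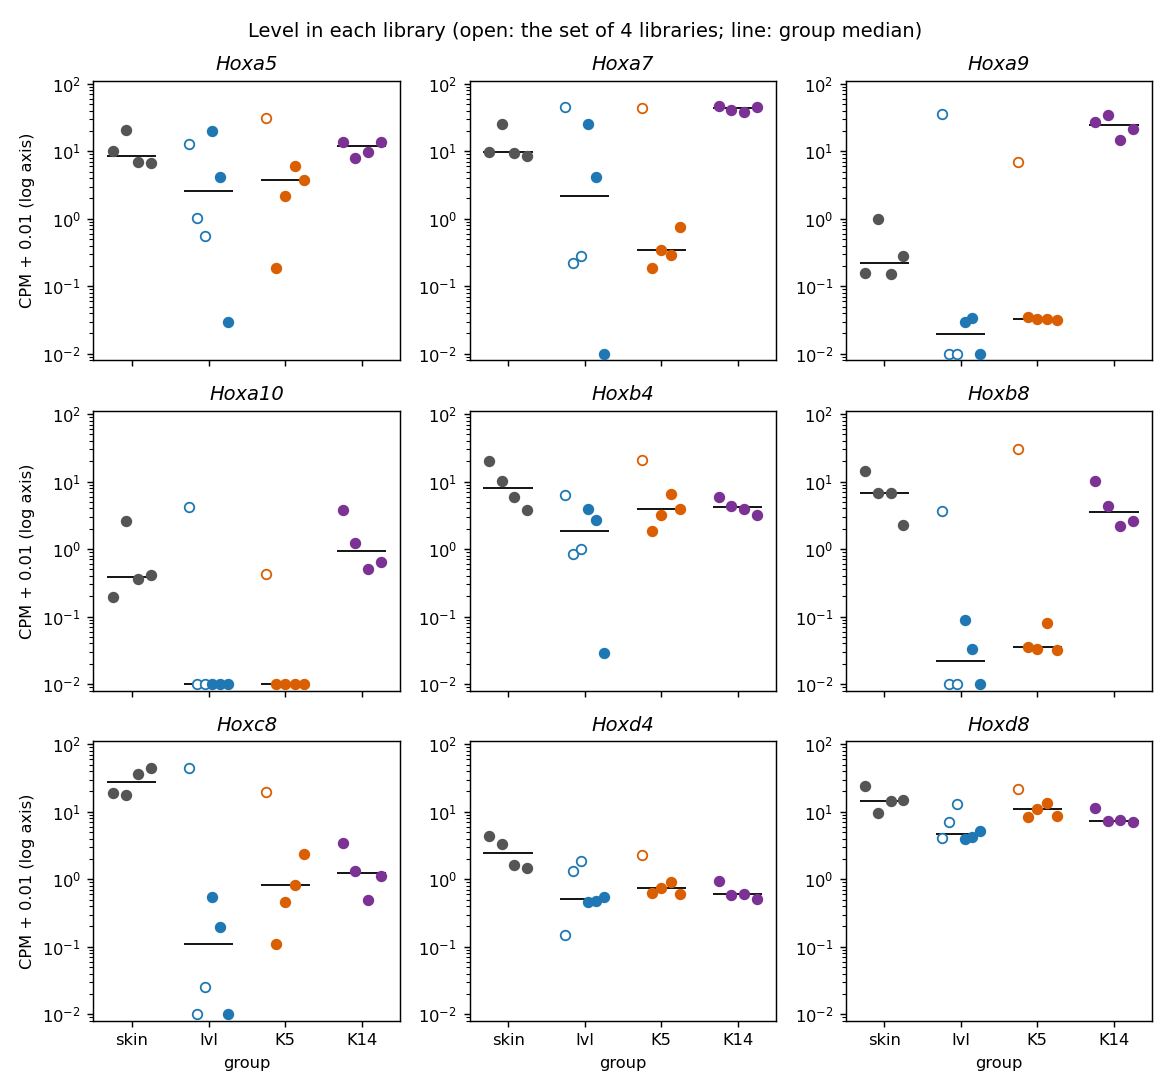
CPM plus 0.01 on a log axis (vertical) of 9 members in each library by group, with 1 point per library, open points for the 4 libraries that stood apart and a line at the group median. Hoxa9 separates the 4 K14 tumours, at 14.6 to 35 CPM, from K5 2 to 5, at no more than 0.0253 CPM, while Hoxd8 lies between 3.99 and 23.7 CPM in all groups.

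Hoxa10, which patterns the lumbar region and the uterus, was at 0.185, 2.63, 0.347 and 0.3999 CPM in normal skin and at 3.84, 1.2, 0.503 and 0.626 in the K14 tumours. It had 0 counts in K5 2 to 5 and in Ivl 2 to 6, and stood at 4.26 CPM in Ivl 1. Against the floor of 3 counts per library it was at least 22.2-fold lower in K5 than in K14 tumours and at least 12.8-fold lower than in normal skin within the 15 libraries. The fall against normal skin passed the test in K5 tumours (edgeR adjusted p = 0.00408) and missed it in Ivl tumours (0.0583). Hoxa6, a central neighbour of Hoxa7, had 4 counts in all in K5 2 to 5 and was at 1.44 to 6.73 CPM in normal skin. It fell in K5 tumours within the 15 libraries (edgeR adjusted p = 1.58e-04), at a ratio of 126 (49.0 to 463). Hoxa11, a gene of limb and kidney development, was listed at 0 in all normal skin libraries and at 0.101, 0.0691, 0.0479 and 0.0418 CPM in the K14 tumours. The K14 tumours were thus at least 1.98-fold above the floor (edgeR adjusted p = 0.0259), a call lost without K14 1 (0.0502), and 35.0% of its exon bases lie in an antisense transcript.

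The anterior Hoxa2 and Hoxa3, which pattern the pharyngeal arches and the thymus, were highest in skin 2. Hoxa3 was at 3.22, 15.9, 0.543 and 0.673 CPM in the normal skin libraries and at or below 0.824 in the K14 tumours, 0.278 in Ivl 4 to 6 and 2.68 in K5 2 to 5. It fell within the 15 libraries in Ivl tumours (edgeR adjusted p = 0.0169) and in K14 tumours (0.0292). The former call was lost without Ivl 5 or Ivl 6 and the latter without skin 2, K14 2, K14 3 or K14 4, with adjusted p up to 0.0509 and 0.157. Hoxa2 fell in Ivl tumours within the 15 (-3.32 ± 1.03, edgeR adjusted p = 0.0135), a call lost without skin 2 or Ivl 5 (up to 0.0602). Hoxa4 ranged from 0.00975 to 0.483 CPM in normal skin and from 0.127 to 6.07 in K5 tumours, and passed the edgeR test in no comparison. Hoxa13 had at most 2 counts in a library.

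The Hoxb cluster was the one in which all called members fell. Over 19 libraries edgeR called 0 of its 9 tested members in any tumour group against normal skin. Of all genes, 20.4% rose and 15.5% fell in Ivl tumours there, 22.2% and 33.5% in K5, and 20.6% and 25.9% in K14 tumours. Hoxb4 and Hoxb5 in Ivl tumours and Hoxb3 and Hoxb5 in K14 tumours had an unadjusted p under 0.05 there, and DESeq2 called Hoxb4 in Ivl and Hoxb3 and Hoxb5 in K14 tumours. Of all genes, 48.7% in Ivl and 56% in K14 tumours had an unadjusted p under 0.05 there. Without the 4 libraries that stood apart, 4 fell in Ivl tumours, 6 in K5 tumours and 3 in K14 tumours, and 0 rose. Of all genes, 32.7%, 38.4% and 32.6% fell in these groups within the 15 libraries, and 22.2%, 22.8% and 21.9% rose. Hoxb8, known for its part in myeloid progenitors, was at 14.5, 6.85, 6.68 and 2.24 CPM in normal skin and 10.2, 4.4, 2.16 and 2.61 in the K14 tumours. In the K5 tumours 1 to 5 it was at 30.3, 0.0253, 0.0226, 0.06997 and 0.0216 CPM, and in Ivl 1 to 6 at 3.64, 0, 0, 0.0794, 0.0234 and 0. K5 1 was the highest of all 19 libraries, and K5 2 to 5 held 6 counts in all. The ratio of the K14 tumours to K5 2 to 5 was 144 (exact 95% counting interval 66.0 to 394, edgeR adjusted p = 0.00863), a call lost without K5 2 or K5 3 (up to 0.0642). The ratio of normal skin to K5 2 to 5 was 204 (93.6 to 557, edgeR adjusted p = 5.42e-06). In Ivl 4 to 6 Hoxb8 fell against normal skin too (adjusted p = 0.017), a call lost without Ivl 5 or Ivl 6 (up to 0.0584).

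Hoxb6, a central gene, was at 25.6, 18, 7.68 and 5.1 CPM in normal skin and 3.22, 2.63, 0.335 and 0.438 in the K14 tumours. It had 6 counts in all in K5 2 to 5 and 5 in Ivl 4 to 6, and was at 28.6 CPM in K5 1 and 8.15 in Ivl 1. All K14 tumours lay below all normal skin libraries and above K5 2 to 5. Against normal skin within the 15 libraries it fell in K14 tumours by 3.09 log2 (edgeR adjusted p = 0.00214), and the ratios of normal skin to the Ivl and K5 tumours were 379 (162 to 1168, 0.0042) and 377 (173 to 1027, 5.83e-06). Hoxb5, which acts in the enteric nervous system, and Hoxb3, a hindbrain gene, fell in all tumour groups within the 15. Hoxb5 was at 9.26, 8.53, 2.57 and 1.04 CPM in normal skin, and at 0.0479 to 0.392 in K14 tumours, 0.0216 to 0.0933 in K5 2 to 5 and 0 to 0.0234 in Ivl 4 to 6. Hoxb3 was at 12.3, 4.23, 3.49 and 1.65 CPM in normal skin and at 0.0626 to 0.462, 0.076 to 0.173 and 0 to 0.0469 in these groups. For both genes all tumours of the 15 libraries lay below all normal skin libraries, with edgeR adjusted p values in the 3 groups from 1.61e-05 to 2.11e-04, and 52.9% of the Hoxb3 exon bases lie in the antisense transcript Hoxb3os.

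Hoxb9 and Hoxb7, the thoracic end of the cluster, were present in the K14 tumours within or above the range of normal skin. Hoxb9 was at 3.9, 9.34, 2.57 and 5.52 CPM in normal skin, 13.9, 8.85, 9.08 and 6.18 in the K14 tumours and 20.5, 0.0253, 0.0226, 0.187 and 0.454 in the K5 tumours 1 to 5. In Ivl 2 to 6 it reached at most 0.536 CPM. It fell within the 15 libraries in K5 tumours against normal skin (-4.91 ± 0.88, edgeR adjusted p = 3.64e-04). Its call between K5 and K14 tumours (0.0455) was lost in 11 of the 15 fits that left out a library, up to 0.140. Hoxb7 fell in K5 tumours within the 15 (-4.35 ± 1.03, edgeR adjusted p = 0.00278). It ranged from 1.3 to 9.57 CPM in normal skin, from 0.0253 to 0.41 in K5 2 to 5 and from 3.19 to 8.02 in K14 tumours. Hoxb4, a gene linked to blood stem cell growth, was the highest Hoxb paralogue left in K5 2 to 5: it was at 20.2, 10.02, 5.96 and 3.8 CPM in normal skin, 20.6, 1.85, 3.21, 6.58 and 3.85 in K5 1 to 5, 5.93, 4.33, 3.95 and 3.15 in K14 and 6.26, 0.821, 0.98, 3.95, 2.67 and 0.0193 in Ivl 1 to 6. The tumours overlapped with normal skin, and no edgeR test called Hoxb4. Hoxb2 ranged over 0.224 to 3.56 CPM in normal skin and passed in no comparison, and Hoxb1 stayed at or below 0.159 CPM in all 19 libraries.

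The Hoxc cluster, which supplied the largest share of HOX RNA in skin 1, skin 3 and skin 4, was lower in most tumours at its central genes, and its posterior end held both members that rose and members that fell. Over 19 libraries 0 of its 9 members were called in Ivl tumours (0 at an unadjusted p under 0.05, and 0 by DESeq2), and 1 rose and 2 fell in K5/K14 tumours. Of all genes, 48.7% had an unadjusted p under 0.05 in Ivl tumours over 19 libraries. Within the 15 libraries 6 fell in Ivl, 7 fell in K5, and 2 rose and 3 fell in K14 tumours. Of all genes, 20.4% rose and 15.5% fell in Ivl tumours over 19 libraries, and 23.2% and 38.9% in K5/K14 tumours. Within the 15 libraries the shares were 22.2% and 32.7% in Ivl, 22.8% and 38.4% in K5, and 21.9% and 32.6% in K14 tumours. Hoxc8, a thoracic patterning gene, was at 18.7, 17.9, 36.7 and 44 CPM in normal skin. It was at 3.44, 1.34, 0.479 and 1.11 CPM in the K14 tumours, 19.7, 0.101, 0.452, 0.816 and 2.33 in K5 1 to 5 and 43.8, 0, 0.0153, 0.536, 0.187 and 0 in Ivl 1 to 6. All K14 tumours, K5 2 to 5 and Ivl 2 to 6 lay below all normal skin libraries, and Ivl 1 and K5 1 lay within their range. Within the 15 libraries Hoxc8 fell by 6.91 log2 in Ivl, 4.97 in K5 and 4.20 in K14 tumours (edgeR adjusted p = 5.25e-04, 0.00109 and 0.00298). Over 19 libraries the same contrasts had adjusted p values of 0.342, 0.223 and 0.114.

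Hoxc6, a gene of the neck to thorax, was at 12.7, 15, 14 and 13.6 CPM in normal skin. It was at 5.83, 4.01, 1.94 and 1.73 in K14 tumours, 0.937 to 4.15 in K5 2 to 5 and 0 to 1.41 in Ivl 4 to 6. All of these lay below normal skin. It fell within the 15 libraries by 3.96 log2 in Ivl, 2.30 in K5 and 2.03 in K14 tumours (edgeR adjusted p = 0.00309, 0.0233 and 0.0426), where the K14 call was lost in 10 of 15 fits that left out a library (up to 0.104) and the K5 call without K5 2 or K5 3 (up to 0.0590). Hoxc9, which specifies thoracic motor neurons, was at 2.18, 2.001, 4.69 and 6.89 CPM in normal skin, 2.79, 1.57, 1.05 and 1.84 in K14 tumours and 0.108 to 0.158 in K5 2 to 5. It fell in K5 tumours within the 15 (-4.87 ± 0.90, edgeR adjusted p = 4.37e-04) and in Ivl tumours (0.0321), the second call being lost without skin 4, Ivl 5 or Ivl 6 (up to 0.101). Hoxc5 fell in Ivl (-2.82, edgeR adjusted p = 0.0373) and K5 tumours (-2.85, 0.0116) within the 15, and its Ivl call was lost without skin 1, skin 2, Ivl 5 or Ivl 6 (up to 0.0858). Hoxc4 ranged from 4.09 to 13.2 CPM in normal skin and from 0.431 to 7.28 CPM in K14 tumours and passed in no comparison.

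At the posterior end, Hoxc10, which patterns the lumbar spinal cord and hindlimb, was at 0.488, 0.663, 0.178 and 0.341 CPM in normal skin. It was at 2.86, 1.5, 1.05 and 1.25 CPM in the K14 tumours and at 2.99 in K5 1. It had 0 counts in K5 2 to 5, Ivl 2, Ivl 3, Ivl 5 and Ivl 6. The K14 tumours exceeded all normal skin libraries, with a log2 fold change of 2.00 ± 0.69 within the 15 (edgeR adjusted p = 0.0284, 0.307 over 19), a call lost without skin 3, skin 4 or K14 1 (up to 0.0809). Against the floor, K5 2 to 5 were at least 23.9-fold lower than K14 tumours and at least 5.999-fold lower than normal skin (edgeR adjusted p = 0.0417 and 7.19e-04). The former call was lost in 12 of 15 fits that left out a library (up to 0.111), and 8.70% of the Hoxc10 exon bases are shared with Hoxc5. Hoxc11, a hindlimb gene, had 1 count in all in normal skin and was at 0.302, 0.438, 0.264 and 0.334 CPM in the K14 tumours, a ratio of 125 (21.6 to 5011, edgeR adjusted p = 0.00349). It had 0 counts in K5 2 to 5 and in Ivl 3 to 6. The K14 call of Hoxc11 held in all fits that left out a library, at levels below 1 CPM. Hoxc12 had 0 counts in all 5 K5 tumours and was at 0.29, 0.045, 0.0469 and 0.078 CPM in normal skin, at least 1.76-fold higher (edgeR adjusted p = 0.0108).

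Hoxc13, which drives hair and nail keratin genes in the hair follicle, was at 85.6, 4.57, 26.9 and 22.9 CPM in the 4 normal skin libraries. It was at 7.48, 1.24, 1.39 and 1.04 CPM in the K14 tumours, 7.21, 1.44, 2.39, 2.59 and 1.25 in K5 1 to 5 and 0.0154, 25.7, 25.3, 1.53, 0.96 and 4.85 in Ivl 1 to 6. Skin 1 was the highest library and skin 2, at 4.57 CPM, lay within the tumour range. Over 19 libraries Hoxc13 fell in K5/K14 tumours by 3.59 log2 (SE 0.99, edgeR adjusted p = 0.00523), and in Ivl tumours its adjusted p was 0.177. Within the 15 libraries it fell in Ivl tumours as well (-3.83 ± 1.03, edgeR adjusted p = 0.00678). Summed CPM over 5 hair follicle markers (Krt25, Krt27, Krt71, Lhx2 and Shh) were 2116, 32.9, 1175 and 909.8 in normal skin, 914, 45.6, 1.08 and 1.48 in K14, 0.985, 2.13, 2.21, 2.26 and 2.05 in K5 and 2.87, 1254, 502, 111, 2.81 and 492 in Ivl tumours. The libraries with the highest follicle sums, skin 1, Ivl 2 and skin 3, were also 3 of the 4 with the highest Hoxc13. K14 1 had the next sum, 914 CPM, with 7.48 CPM of Hoxc13, while skin 4 at 909.8 had 22.9. Ivl 3 and Ivl 6 had similar sums, 502 and 492, with 25.3 and 4.85 CPM of Hoxc13. All 5 follicle markers fell in K5 tumours, over 19 libraries and within the 15, and 2 of 5 (Lhx2 and Shh) in K5/K14 tumours. Krt25 was listed at 0 in K5 3, K5 4 and K14 3, and Shh in all K5 tumours, K14 3, K14 4, Ivl 1 and Ivl 5. The part of the follicle content in the Hoxc13 difference was not tested.

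**Figure D5:**
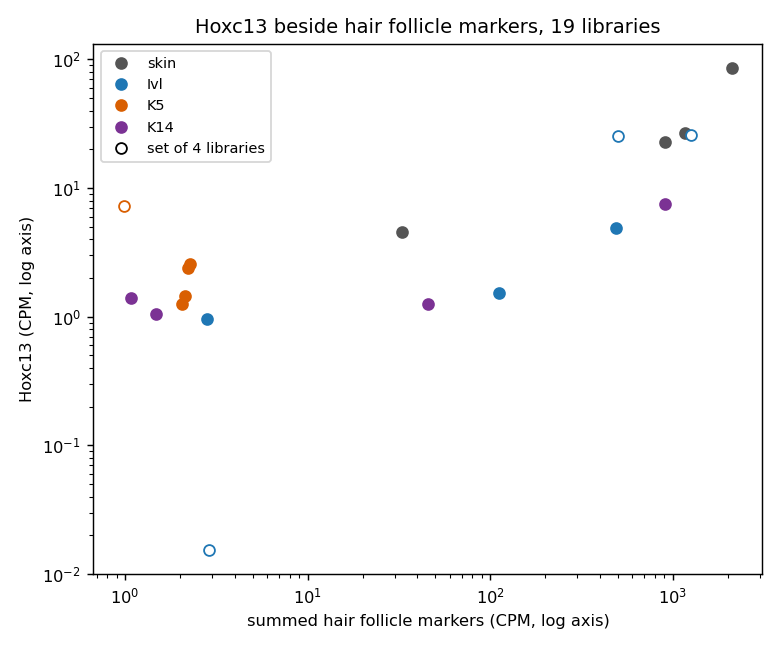
CPM of Hoxc13 (vertical, log axis) against the summed CPM of 5 hair follicle markers (horizontal, log axis), 1 point per library coloured by group, with open points for the 4 libraries that stood apart. Skin 1 lies at the top right, the 5 K5 tumours lie at the left with sums of 0.985 to 2.26 CPM, and Ivl 1 lies at the bottom left with 0.0154 CPM of Hoxc13.

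The Hoxd cluster held the members detected in all 19 libraries, Hoxd8 and Hoxd9, and in K5 2 and Ivl 6 it supplied most of the HOX RNA. Of its 7 tested members, over 19 libraries, 0 rose and 5 fell in Ivl tumours, 2 rose and 1 fell in K14 tumours, and 0 were called in K5 tumours, where edgeR gave 3 (Hoxd1, Hoxd4 and Hoxd10) an unadjusted p under 0.05 and DESeq2 called Hoxd4. Of all genes, 62.2% had an unadjusted p under 0.05 in K5 tumours over 19 libraries. For the 15 libraries 0 rose and 5 fell in Ivl, 1 rose and 1 fell in K5, and 2 rose and 3 fell in K14 tumours. Of all genes, 20.4% rose and 15.5% fell in Ivl tumours over 19 libraries and 22.2% and 32.7% within the 15, 22.2% and 33.5% and then 22.8% and 38.4% in K5 tumours, and 20.6% and 25.9% and then 21.9% and 32.6% in K14 tumours. Hoxd8, a trunk patterning gene, was at 23.7, 9.59, 14.3 and 15 CPM in normal skin and 4.1, 7.14, 13, 3.99, 4.19 and 5.26 in Ivl 1 to 6. It was at 21.9, 8.38, 10.9, 13.5 and 8.6 CPM in K5 1 to 5 and 11.4, 7.4, 7.43 and 6.95 in the K14 tumours. Ivl 3 was the only Ivl tumour to reach the normal skin range. Hoxd8 fell in Ivl tumours by 1.32 log2 (SE 0.36, edgeR adjusted p = 0.00821) over 19 libraries and by 1.81 (SE 0.30, 1.36e-04) within the 15. In K14 tumours its difference was -0.92 ± 0.39 over 19 libraries (0.0589) and passed within the 15 (0.00792). Between Ivl and K5/K14 tumours its log2 difference within the 15 libraries was -1.06 ± 0.27 (edgeR adjusted p = 0.105).

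Hoxd9, which acts in the lumbar spinal cord and hindlimb, was at 3.23, 4.36, 5.66 and 5.65 CPM in normal skin and 2.01, 2.76, 4.76, 1.55, 1.59 and 2.52 in Ivl 1 to 6. It was at 6.94, 3.97, 3.59, 4.73 and 2.89 in K5 1 to 5 and 5.95, 3.8, 3.62 and 3.69 in the K14 tumours. Ivl 3 lay within the normal skin range and the other Ivl tumours below it, while the K5 and K14 tumours overlapped with normal skin. It fell in Ivl tumours (-0.90 ± 0.31, edgeR adjusted p = 0.03 over 19 and 0.00126 within the 15), where the first call was lost without skin 3, skin 4, Ivl 1, Ivl 4 or Ivl 5 (up to 0.0809). Its neighbour Hoxd10 was at 0.198, 0.281, 0.928 and 1.1 CPM in normal skin, 1.77, 1.68, 1.75 and 1.17 in the K14 tumours and 1.76, 0.937, 1.69, 1.77 and 0.562 in K5 1 to 5. The K14 tumours lay above all normal skin libraries. It rose in K5/K14 tumours (1.21 ± 0.46, edgeR adjusted p = 0.0301), a call lost without skin 1, skin 2 or K14 1 (up to 0.0979).

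Hoxd4, a hindbrain and neck gene, was at 4.43, 3.34, 1.62 and 1.48 CPM in normal skin and at 0.925, 0.576, 0.599 and 0.501 in the K14 tumours. It was at 0.138, 1.33, 1.88, 0.456, 0.469 and 0.539 CPM in Ivl 1 to 6 and 2.3, 0.608, 0.745, 0.91 and 0.605 in K5 1 to 5. The K14 tumours, K5 2 to 5 and the Ivl tumours other than Ivl 3 lay below all normal skin libraries. It fell in K14 tumours (-2.06 ± 0.65, edgeR adjusted p = 0.0165) and in Ivl tumours (-1.75 ± 0.56, 0.0212), over 19 libraries. The K14 call was lost without skin 1 (0.0509) and the Ivl call without skin 1 or skin 2 (up to 0.0812), and within the 15 libraries Hoxd4 fell in all 3 tumour groups. Hoxd3 fell in Ivl tumours over 19 libraries (-2.53 ± 0.94, edgeR adjusted p = 0.042), a call lost in 7 of 19 fits that left out a library (up to 0.160). It was at 0.146 to 0.659 CPM in normal skin and 0 to 0.23 in Ivl tumours. Hoxd3 and Hoxd4 share exon bases with each other and with antisense and other transcripts, 62.8% and 52.3% of their lengths.

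Hoxd1, a gene of pain-sensing neurons, was the only member called between Ivl and K5/K14 tumours over 19 libraries. It had 0 counts in all 6 Ivl tumours, 0.0159 to 0.151 CPM in the 9 K5/K14 tumours and 0.0527, 0, 0.0187 and 0.0195 CPM in normal skin. Its highest count in any library was 7. The K5/K14 tumours were thus at least 1.78-fold above the Ivl tumours set at the floor (edgeR adjusted p = 0.0154), and within the 15 libraries the adjusted p was 0.0591. DESeq2 called Hoxd9 and Hoxd10 in this contrast over 19 libraries. Against normal skin Hoxd1 was called higher in K5/K14 tumours (fitted 2.03 ± 0.74, edgeR adjusted p = 0.0272), a call lost without skin 2, skin 3 or skin 4 (up to 0.0701). The groups overlapped around the floor, with 4, 0, 2 and 2 counts in normal skin and 1 to 7 in the K5/K14 tumours, so the fitted value is no measure of size. Its call against normal skin in Ivl tumours (0.0139) compares groups at or under the floor, and no fold is given. Hoxd11 stayed at or below 0.144 CPM and was called in no comparison, and Hoxd13 had at most 4 counts in a library.

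The machinery around the HOX genes was followed in lists that do not overlap with the members, and their counts can be read against all genes, of which 20.4% rose and 15.5% fell in Ivl tumours over 19 libraries (22.2% and 32.7% within the 15) and 23.2% and 38.9% in K5/K14 tumours (23.9% and 42.3%). Among 9 TALE cofactor genes, Meis1 fell in K5/K14 tumours (-2.01 ± 0.41, edgeR adjusted p = 4.79e-04), Pknox2, which encodes PREP2, fell (-4.79 ± 1.12, 0.00152) and Pbx3 rose (0.53 ± 0.16, 0.00841). In Ivl tumours 1 TALE gene, Meis3, fell over 19 libraries (-1.07 ± 0.38, edgeR adjusted p = 0.0356), and 1 rose and 3 fell within the 15. Of 22 Polycomb genes, 5 rose and 1 fell in Ivl tumours and 6 rose and 6 fell in K5/K14 tumours over 19 libraries. With the 15 libraries these were 8 and 5 in Ivl and again 6 and 6 in K5/K14 tumours. Eed, a core subunit of the histone-methylating Polycomb complex, rose (0.76 ± 0.13, edgeR adjusted p = 1.12e-04 in K5/K14 tumours), while the catalytic subunit Ezh2 differed by -0.24 ± 0.14 (0.135) and the chromobox gene Cbx7 fell (-1.37 ± 0.26, 2.57e-04). Of 10 Trithorax and MLL genes, 5 rose and 2 fell in K5/K14 tumours and 4 rose and 1 fell in Ivl tumours over 19 libraries, and within the 15 the counts were 5 and 2 in both. Kmt2a, the MLL methyltransferase that maintains HOX expression, fell in both (-1.18 ± 0.21 in K5/K14 and -0.75 ± 0.24 in Ivl tumours, edgeR adjusted p = 1.58e-04 and 0.0188).

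Of 8 tested noncoding transcripts and edge genes inside the clusters, 1 rose (Hotairm1) and 2 fell (Hoxaas2 and Hoxd3os1) in Ivl tumours over 19 libraries, and 1 rose and 5 fell within the 15. In K5/K14 tumours 1 rose and 1 fell over 19 libraries and 1 rose and 6 fell within the 15. Without the strand setting of the counting, reads of an antisense transcript cannot be told apart from those of a gene it overlaps. Hoxb5os, antisense in the Hoxb cluster, fell within the 15 libraries with its neighbours Hoxb5 and Hoxb6 in Ivl (-6.94 ± 1.42, edgeR adjusted p = 9.05e-04) and K5/K14 tumours (-4.27 ± 0.77, 2.25e-04). Of 11 retinoic acid pathway and caudal genes, 4 rose and 2 fell in Ivl tumours and 3 rose and 4 fell in K5/K14 tumours over 19 libraries, and within the 15 it was 5 and 3 in Ivl and 4 and 4 in K5/K14 tumours. Crabp2, which carries retinoic acid to its receptors, rose by 2.83 ± 0.43 log2 in K5/K14 tumours (edgeR adjusted p = 2.79e-05), and the synthetic enzyme Aldh1a3 rose by 3.21 ± 0.73 (0.00133). The receptor gene Rara fell (-0.99 ± 0.25, 0.0025).

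Among 17 other genes that mark body position, 4 rose and 3 fell in Ivl tumours and 3 rose and 8 fell in K5/K14 tumours over 19 libraries, against 4 and 4 and 3 and 10 within the 15. Pitx1, a hindlimb and oral homeobox gene, was at 1.24, 3.06, 1.89 and 1.05 CPM in normal skin, 50.5, 53.4, 78.5 and 69 in K14, 6.29, 59.5, 90.2, 56.1 and 64.3 in K5 1 to 5 and 218, 27.1, 40.9, 295, 255 and 104 in Ivl 1 to 6. All tumours lay above all normal skin libraries, with a rise of 6.43 ± 0.84 log2 in Ivl tumours (edgeR adjusted p = 2.31e-05) and 5.02 ± 0.77 in K5/K14 tumours (4.16e-05). Between Ivl and K5/K14 tumours 2 of the 17 were higher and 1 lower over 19 libraries, where 1 member of the HOX genes was called. These were Alx1 (4.60 ± 1.11, edgeR adjusted p = 0.0373) and Pax3 (2.40 ± 0.59, 0.0393), genes of head mesenchyme and of neural crest, and the trunk and limb ectoderm gene En1 (-2.94 ± 0.72, 0.0393), the lower one. Alx1 was at 0, 0.296, 0.842, 0, 0.0234 and 2.16 CPM in Ivl 1 to 6, against 1.17, 0.236, 0.262 and 0.0878 in normal skin. It was at most 0.0603 in the K5/K14 tumours. Pax3 was at 0.415, 1.43, 4.1, 0.258, 0.164 and 2.73 CPM in Ivl 1 to 6 and 0.0953 to 0.583 in the K5/K14 tumours. For both genes Ivl 2, Ivl 3 and Ivl 6 lay above all K5/K14 tumours, whereas Ivl 1, Ivl 4 and Ivl 5 did not. Within the 15 libraries Pitx1 alone of the 17 was called between these tumour types (1.74 ± 0.29, edgeR adjusted p = 0.0201).

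The markers of other cell types were summed per library as well. In Ivl tumours over 19 libraries edgeR called 0 fibroblast, skeletal muscle, adipocyte or hair follicle markers, where 2 of the 7 fibroblast markers and 0 of the others had an unadjusted p under 0.05 and DESeq2 called 2 and 0. Of all genes, 48.7% had an unadjusted p under 0.05 in Ivl tumours over 19 libraries. Skeletal muscle markers (5 genes) summed to 2065 to 6026 CPM in normal skin, 4.09 to 3622 in Ivl, 6.98 to 135 in K5 and 4.95 to 325 in K14 tumours, and all 5 fell in K5/K14 tumours, while 1 fell in Ivl tumours within the 15. Adipocyte markers (4 genes) summed to 64.5 to 190.2 CPM in normal skin and at most 71.6 in the tumours, and in K5/K14 tumours 2 of the 4 fell over 19 libraries and 3 within the 15. Of the 7 fibroblast markers 2 fell in Ivl tumours within the 15 libraries (Col1a1 and Pdgfra), while in K5/K14 tumours Fbln1 rose and Dcn fell over 19 libraries and within the 15. Endothelial markers (4 genes) summed to 31 to 271 CPM in normal skin and 58.1 to 248, 116 to 277 and 143 to 322 in Ivl, K5 and K14 tumours, which overlapped with normal skin. Melanocyte markers (4 genes) summed to 17.9 to 295 CPM in normal skin and 3.04 to 51.4, 9.49 to 157 and 4.53 to 35.7 in Ivl, K5 and K14 tumours, and in K5/K14 tumours edgeR called 0 of the 4 over 19 libraries (0 at an unadjusted p under 0.05, and 2 by DESeq2) and all 4 fell within the 15. The summed CPM of 4 leukocyte markers lay at 57.9 to 2627 in the tumours and 43.5 to 173 in normal skin. In the tumours S100a8, a calprotectin subunit of neutrophils and of stressed keratinocytes, made up most of it. S100a8 rose in Ivl and K5/K14 tumours, whereas Ptprc, the pan-leukocyte CD45 gene, and the T cell gene Cd3e fell in K5/K14 tumours over 19 libraries (-1.63 ± 0.47 and -2.66 ± 0.51, edgeR adjusted p = 0.00637 and 2.43e-04). Of the 4 markers 1 rose and 3 fell within the 15 libraries in K5/K14 tumours, and 1 rose and 2 fell in Ivl tumours. Ptprc ranged from 22.3 to 98.7 CPM in normal skin. Among these markers, Adipoq, Plin1, Lep, Cidec, Ckm, Myh4 and Mlana were each listed at 0 in some tumours. In K5 2 to 5 the fibroblast sum was 5495 to 9917 CPM, within the wide normal skin range of 833 to 18240.5. Most of it came from the collagen genes Col1a1, Col1a2 and Col3a1, and single fibroblast markers differed in direction, as given above for Fbln1 and Dcn. The part of these cell types in the HOX differences was not tested.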

How the data were processed

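Poly(A) RNA of 19 mouse libraries was sequenced. The authors checked reads with FastQC 0.11.8, trimmed them, aligned them to GRCm38 with HISAT2 2.1.0, counted them per Ensembl gene with featureCounts of Subread 1.6.3 and adjusted the counts for batch with ComBat-seq, so the deposited values are estimated counts, in whole numbers, and not raw reads. The library kit is strand-specific per the labels, and the strand setting of the counting is not given in the sources used here. Symbols and exon lengths came from the GENCODE annotation (34694 of 34807 genes matched).

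Samples were grouped by their titles. Genes with 5 counts in at least 1 library were kept: 32031 genes over 19 libraries, and 31971 over the 15. Counts were scaled by TMM and tested with edgeR 4.0.16 (quasi-likelihood F test, robust) in R 4.3.3 with limma 3.58.1, in a fit of 3 groups (Ivl, K5/K14, normal skin) and in one of 4, with Benjamini-Hochberg adjustment over all genes and a threshold of 0.05. edgeR was the test although the values are adjusted counts. Alternatives were DESeq2 1.42.0, its size factors, other filters on low counts, the set of 4 libraries left out or as a covariate, a replicate block, and each library left out in turn. The procedure was tested on simulated data. A group with 0 counts was set at the floor of 3 counts per library, and a group with at most 3 counts in each library was compared by the ratio of counts with an exact 95% interval. All members were counted, the values of 1 are not reported here, and values per library are given mainly for members called in at least 1 of the 6 comparisons, with ranges and counts for the rest; of the other lists a few called genes were named.

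The members and gene lists were chosen with earlier results of these data known. The adjustment for batch can move the values of single libraries. Intervals and floors treat the adjusted values as read counts and cover counting error only. The 37 same-group pairs of libraries differed by more than sampling noise (lowest chi-square per degree of freedom 25.9), so none was counted as a duplicate.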

Additional observations from a re-analysis of the deposited data

Results flagged for a closer look

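Within groups of 4 to 6 libraries, 117 sets of values (log2 of CPM plus 0.5) were searched for a highest or lowest library whose gap to the nearest other library took most of the range of the group (Dixon's criterion at 95%). Chance meets it in about 1 in 20 groups. Values below are that gap as a share of the range.

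Ivl 1 stood above the other Ivl tumours for 14 members. In the Hoxa cluster the share was 0.830 for Hoxa3, 0.650 for Hoxa6, 0.989 for Hoxa9 and 1 for Hoxa10. In the Hoxb cluster it was 0.655 for Hoxb2, 0.954 for Hoxb3, 0.973 for Hoxb5, 0.961 for Hoxb6, 0.7101 for Hoxb7, 0.930 for Hoxb8 and 0.656 for Hoxb9. In the Hoxc cluster it was 0.632 for Hoxc6, 0.838 for Hoxc8 and 0.682 for Hoxc9. For Hoxc8, Ivl 1 was at 43.8 CPM and no other Ivl tumour was above 0.536.

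K5 1 stood above the other K5 tumours for 12 members, with shares of 0.997 for Hoxa6, 0.853 for Hoxa7, 0.997 for Hoxa9, 0.944 for Hoxb3, 0.954 for Hoxb5, 0.989 for Hoxb6, 0.862 for Hoxb7, 0.978 for Hoxb8, 0.837 for Hoxb9, 0.945 for Hoxc9, 1 for Hoxc10 and 0.738 for Hoxd4. The summed Hoxb cluster had a share of 0.730 in the same library, at 67.2 CPM per kb against 0.803 to 3.29 in K5 2 to 5. Ivl 1 and K5 1 belong to the 4 libraries whose mean matched that of the others gene by gene, and its part in these levels was not tested.

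Of the 4 K14 tumours, K14 1 was the highest for Hoxc13 (0.877), Hoxd8 (0.867) and Hoxd9 (0.902), with the highest hair follicle sum of its group at 914 CPM, and K14 4 was the lowest for Hoxd10 (0.873). In normal skin, skin 2 was the highest for Hoxa7 (0.870), at 25.1 CPM against 8.58 to 9.89. Hoxd1 was the member whose difference from normal skin itself differed between Ivl and K5/K14 tumours (edgeR over all 19 libraries), with a fitted log2 value of -5.56 that depends on the prior count since all Ivl tumours had 0 counts.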

How the results depend on the processing

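The number of called members depended mainly on the 4 libraries that stood apart. Over all 19 libraries edgeR called 6 members in Ivl tumours against normal skin, 8 in K5/K14 against normal skin, 1 in Ivl against K5/K14, 0 in K5 against K14, 3 in K5 against normal skin and 7 in K14 against normal skin. Within the 15 libraries these numbers were 18, 18, 0, 4, 20 and 17. With the set of 4 as a covariate they were 16 (1 higher and 15 lower), 14, 3, 0, 15 and 12. DESeq2 called 2 in Ivl against K5/K14, 7 in K5 and 11 in K14 against normal skin over 19 libraries, and within the 15 it called 5 in Ivl against K5/K14 and 10 in K5 against K14. Of all genes it called 2161, 17009 and 14897 over 19 libraries and 833 and 518 within the 15, in the same order. With edgeR's own filter on low counts (filterByExpr) 5 were called in K5/K14 against normal skin and 0 in Ivl against K5/K14, since Hoxd1 is then not tested. Other counts stayed within 1.5 times the reported one under these alternatives, under DESeq2 size factors and with no filter.

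Leaving out 1 library gave, in the order above, 4 to 21, 5 to 13, 1 to 3, 0 to 0, 3 to 17 and 4 to 11 called members over 19 libraries, and 11 to 20, 14 to 19, 0 to 2, 1 to 7, 19 to 23 and 13 to 19 within the 15; the cause was not tested. Of the single-member calls, 0 reversed their direction under any alternative run. DESeq2 size factors lowered the median log2 fold change over all genes from -0.46 to -0.59 in Ivl and from -0.60 to -0.71 in K5/K14 tumours against normal skin, and member changes are read relative to it.

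The replicate numbers of the labels were shared between groups. The deviations of 25 same-numbered pairs from their group means had correlations from -0.333 to 0.212 (median 0.0178, against -0.0349 for other pairs), and 2 libraries correlated best with their own number, so the numbers did not pair the samples. A replicate block gave 9, 12, 0, 0, 12 and 10 called members in the order above. Depth limits members of few counts: Hoxa11, Hoxc11, Hoxc12, Hoxd1 and Hoxd3 had at most 50 counts in each library.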
